A study of Mus musculus with 208 samples.

Results

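The 7 genes described here are Chat, Slc5a7 and Ache, which make, supply and break down acetylcholine (ACh), and Chrm1, Chrm2, Chrm3 and Chrm4, which encode muscarinic ACh receptors M1 to M4. They were taken by symbol from the deposited count matrices, and all 7 are listed in each of the 4 region tables, among 46403 genes. The values are nuclear polyadenylated RNA of NeuN+ nuclei (NeuN is a protein of the nuclei of most mature neurons), about 5000 sorted nuclei per library. The 208 libraries come from the striatum (54), the hippocampus (55), the hypothalamus (51) and the prefrontal cortex (PFC, 48) of C57BL/6NTac wild type mice as adults, 107 of them from females. In the MOR groups the dams received 10 mg/kg morphine per day by minipump and the pups 10 mg/kg in 2 injections a day from postnatal day 1 to 14. The SAL groups received saline, and all pups were raised by surrogate dams. In adulthood each animal received lipopolysaccharide (LPS, 2 mg/kg) or saline, 2 h before the tissue was taken, and the second part of a group name gives this challenge. The group SAL-SAL had 11 libraries of hypothalamus, 13 of hippocampus, 10 of PFC and 13 of striatum. In the same region order MOR-SAL had 14, 12, 12 and 8, SAL-LPS had 12, 14, 10 and 15, and MOR-LPS had 14, 16, 16 and 18. The replicate labels begin with 1 of 18 numbers (10 for morphine-exposed animals, 8 for saline-exposed ones), called the label number here. The labels do not say what it stands for, and the study's methods give another count of litters.

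ACh is made from choline by choline acetyltransferase, the product of Chat. Slc5a7 encodes the high-affinity transporter that returns choline to the terminal, Slc18a3 the transporter that packs ACh into vesicles, and Ache the enzyme that breaks ACh down in the synapse. The receptors M1 and M3 couple to Gq proteins and phospholipase C, and M2 and M4 to Gi/o proteins, which lower cyclic AMP. In the forebrain ACh comes from interneurons of the striatum and from projection neurons of the basal forebrain, so Chat RNA is made by few neurons, while the receptors are made by many neurons that receive ACh.

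In the GENCODE M21 annotation of mm10, Chat spans chr14:32408203-32465989 on the minus strand, and Slc18a3 (chr14:32462438-32464850, minus) lies inside the Chat gene body with no exon in common. Slc5a7 lies at chr17:54273590-54299034 (minus), Ache at chr5:137287519-137294466 (plus), Chrm1 at chr19:8663789-8683587 (plus), Chrm2 at chr6:36388084-36528414 (plus), Chrm3 at chr13:9875486-10360847 (minus) and Chrm4, a gene of 1 exon, at chr2:91927249-91928688 (plus). Exons of Ache, Chrm1 and Chrm2 overlap exons on the opposite strand (by 98, 329 and 142 bases with Gm42456, Gm22820 and 9330158H04Rik), and the strand setting of the counts is not given in the sources used here, so those counts are uncertain to that extent. The promoters of the 3 genes that mark a cholinergic neuron are printed because 1 cell type makes these RNAs together. They are RefSeq sequences (GRCm38.p6) of 300 bases, from 250 before to 50 after the gene's start, 5′ to 3′ on the gene's strand, at chr14:32465860-32466159 (Chat), chr14:32464801-32465100 (Slc18a3) and chr17:54298985-54299284 (Slc5a7). Capitals mark CACGTG (an E-box), TATAAA or GGGCGG (a GC box), each searched on both strands.
Chat promoter: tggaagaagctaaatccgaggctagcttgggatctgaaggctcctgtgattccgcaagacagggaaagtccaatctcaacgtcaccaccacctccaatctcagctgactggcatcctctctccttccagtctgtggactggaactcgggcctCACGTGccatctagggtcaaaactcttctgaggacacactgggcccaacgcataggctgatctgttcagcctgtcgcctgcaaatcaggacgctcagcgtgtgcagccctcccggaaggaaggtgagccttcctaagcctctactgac
Slc18a3 promoter: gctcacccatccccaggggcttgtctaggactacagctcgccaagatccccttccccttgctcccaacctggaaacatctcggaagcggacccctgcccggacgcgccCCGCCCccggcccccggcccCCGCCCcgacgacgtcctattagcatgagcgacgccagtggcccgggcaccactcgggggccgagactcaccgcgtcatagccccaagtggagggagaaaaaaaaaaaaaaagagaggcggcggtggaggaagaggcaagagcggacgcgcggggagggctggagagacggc
Slc5a7 promoter: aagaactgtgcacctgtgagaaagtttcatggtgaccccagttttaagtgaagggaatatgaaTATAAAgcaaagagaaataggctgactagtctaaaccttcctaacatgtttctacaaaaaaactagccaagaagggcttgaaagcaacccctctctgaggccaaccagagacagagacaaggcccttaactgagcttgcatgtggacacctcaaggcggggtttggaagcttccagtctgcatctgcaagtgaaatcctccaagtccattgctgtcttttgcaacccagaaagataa
The Chat window holds 1 CACGTG, a motif found in 7.15% of 32817 RefSeq promoters of this length. The Slc5a7 window holds 1 TATAAA (13.6% of promoters) and has a GC content of 44.7%, below the median of 52.7%. The Slc18a3 window holds 2 GGGCGG matches (35.6% of promoters have at least 1). None of the 3 windows holds TTCAGCACC, a part of the site of the neuronal repressor REST, or the cyclic AMP element TGACGTCA. Both are rare, found in 0.372% and 1.79% of promoters. These matches describe letters in the window and no binding was measured.

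Hypothalamic libraries held 7673 to 35077048 counts, hippocampal ones 227025 to 24071488, PFC ones 3056648 to 21988203 and striatal ones 5954700 to 92945090. A count of 0 allows up to 3 counts, which is 0.541 CPM (counts scaled to one common library total) at the median total of the hypothalamus and 0.276 to 0.327 CPM in the other regions, and these limits cover counting error only. 8 libraries had a total under 0.5 of their region's median. In 61 libraries the markers of another of the 4 regions ranked higher than those of the labelled region (12 hypothalamic, 14 hippocampal, 24 PFC and 11 striatal), and in 9 the Y-linked genes went against the labelled sex. These libraries were kept, and values without them are given where a member's call changed. The hypothalamic table also differed from the others in its genes that lie inside other genes. Of 1113 genes whose body lies inside another gene and that had a median of at least 5 CPM there, 1058 (95.1%) had no count in any hippocampal, PFC or striatal library, against 43 of 10600 (0.406%) for genes not inside another. Slc18a3, which lies inside Chat but is below that level, had 0 counts in all 157 libraries of hippocampus, PFC and striatum. In the hypothalamus it averaged 0.781 ± 1.15 CPM (SD, n = 51), and 26 libraries were at 0. A difference between the hypothalamus and another region therefore cannot be told apart from a difference between tables.

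Chat was highest in the striatum, and lowest in the hypothalamus by its mean or in the hippocampus by its median. It averaged 25.8 ± 16.6 deposited CPM (SD, n = 54) in the striatum, with a lowest library at 0, a median of 24.0 and a highest of 67.8. PFC libraries had a mean of 14.9 ± 15.4 (n = 48, median 12.1, highest 79.7), hippocampal ones of 4.84 ± 9.16 (n = 55, median 1.28, highest 45.3) and hypothalamic ones of 2.14 ± 2.69 (n = 51, median 1.45, highest 12.8). Libraries at 0 numbered 1, 3, 18 and 13 in the same order, and the ranges of all regions overlapped. In 1 edgeR fit of all libraries (16 region-by-condition groups and sex, quasi-likelihood test), striatal Chat exceeded hippocampal Chat by a log2 fold change (log2FC) of 2.87 (SE 0.38, edgeR adjusted p = 3.68e-11). Hippocampal against hypothalamic Chat had a log2FC of 1.29 (SE 0.40, edgeR adjusted p = 0.00261) that was -0.46 by limma-voom. It was 0.76 without the libraries that went against their labels (edgeR adjusted p = 0.146) and 1.49 in SAL-SAL libraries alone (edgeR adjusted p = 0.196), so neither the call nor its direction held throughout. PFC exceeded hippocampus by 1.97 (SE 0.37, edgeR adjusted p = 3.54e-06). The difference of 0.89 between striatum and PFC (SE 0.37, edgeR adjusted p = 0.0530) did not pass the threshold of an adjusted p under 0.05. Without the libraries that went against their labels it was 2.36 (edgeR adjusted p = 1.88e-05). The 24 PFC libraries with striatal markers ranked highest had a Chat mean of 23.4 ± 17.1 CPM, against 6.36 ± 6.23 in the other 24.

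Slc5a7 was also highest in the striatum, at lower CPM, with means of 6.82 ± 6.53 CPM in the striatum, 3.57 ± 5.60 in the PFC, 2.85 ± 5.68 in the hypothalamus and 1.82 ± 3.18 in the hippocampus (SD, n = 54, 48, 51 and 55). Its medians were 5.11, 1.67, 1.54 and 0.604. A few libraries set the upper end. The highest hypothalamic library (16-1 of MOR-SAL, 39.6 CPM) and the highest PFC library (1-4 of SAL-LPS, 35.0 CPM) were far above the medians, and the top 2 libraries held 32.9% of the summed CPM of the hypothalamus. Striatal Slc5a7 exceeded hippocampal by a log2FC of 2.24 (SE 0.40, edgeR adjusted p = 9.21e-07) and PFC Slc5a7 by 1.05 (SE 0.40, edgeR adjusted p = 0.0343). The second did not pass without low-depth libraries (0.98, edgeR adjusted p = 0.0526) or in SAL-SAL libraries alone (2.50, edgeR adjusted p = 0.0610). PFC exceeded hippocampus by 1.20 (SE 0.39, edgeR adjusted p = 0.0124), but by 0.72 without the libraries that went against their labels (edgeR adjusted p = 0.383) and by 1.03 in SAL-SAL libraries alone (edgeR adjusted p = 0.540).

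Ache was highest in the hypothalamus. It averaged 215 ± 90.7 CPM in the hypothalamus (SD, n = 51, median 236, from 23.9 to 495) and 26.5 ± 15.1 in the hippocampus (n = 55, median 23.9, from 4.75 to 79.3). The PFC had 50.7 ± 34.5 (n = 48, median 34.1, from 0 to 146) and the striatum 36.2 ± 20.1 (n = 54, median 29.8, from 11.9 to 105). Among the other 3 regions PFC exceeded hippocampus by a log2FC of 1.04 (SE 0.15, edgeR adjusted p = 2.23e-09) and striatum exceeded hippocampus by 0.55 (SE 0.15, edgeR adjusted p = 0.00158). Against the hypothalamus the log2FC was -2.86 for hippocampus, -1.82 for PFC and -2.30 for striatum (SE 0.16 each, edgeR adjusted p of 1.52e-22 or less), and genes with a short body, as Ache has, were in general higher in the hypothalamic table. With the genes split by body length into 4 equal sets, the median log2 ratio to the hypothalamus in the shortest set was -1.01 for hippocampus, -1.13 for PFC and -1.46 for striatum, each smaller in size than that of Ache. In the longest set it was 0.78, 0.64 and 0.91. The part of gene length in the Ache difference was not tested. The other tables also differed with length, by less: the ratio of PFC to striatum was 0.47 in the shortest set and -0.30 in the longest, and that of hippocampus to striatum 0.44 and -0.11.

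The M1 receptor gene Chrm1 was highest in hippocampus (236 ± 91.0 CPM, SD, n = 55, median 216, from 104 to 519) and PFC (180 ± 78.8, n = 48, median 163, from 73.2 to 436). The difference between these 2 regions, a log2FC of -0.27 for PFC against hippocampus (SE 0.18, edgeR adjusted p = 0.342), did not pass. Striatal Chrm1 was lower, with 85.0 ± 72.1 CPM (n = 54, median 68.8), a log2FC of -1.42 against hippocampus (SE 0.18, edgeR adjusted p = 2.60e-11). In the hypothalamus the mean of 65.6 ± 103 and the median of 24.2 (n = 51, from 2.26 to 474) lay far apart, and the 12 libraries whose region markers ranked highest for another region had a mean of 156 ± 151 against 37.8 ± 63.1 in the other 39. These 39 include library 1-4 of SAL-LPS, where 3 counts in a total of 7673 gave 391 CPM, and their median was 22.9.

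Chrm3, the M3 receptor gene, had the highest CPM of the set in hippocampus, PFC and striatum, with means of 487 ± 230, 347 ± 205 and 272 ± 136 (SD, n = 55, 48 and 54) and medians of 441, 315 and 253. Striatum was below hippocampus by a log2FC of -0.73 (SE 0.16, edgeR adjusted p = 0.000108). This was -0.88 with the animal as replicate block (SE 0.40, limma-voom adjusted p = 0.102) and -0.88 in SAL-SAL libraries alone (SE 0.30, edgeR adjusted p = 0.0611), where it did not pass. Neither striatum nor hippocampus differed from PFC beyond the threshold (log2FC of striatum against PFC -0.39, edgeR adjusted p = 0.0648, and of PFC against hippocampus -0.34, edgeR adjusted p = 0.127). Striatum against PFC passed in 3 of 10 alternatives, with values from -1.02 without the libraries that went against their labels (edgeR adjusted p = 7.79e-07) to 0.04 by limma-voom. PFC against hippocampus passed in 2 of 10, with values from -0.62 by limma-voom to 0.40 without those libraries. In the hypothalamus Chrm3 averaged 44.7 ± 70.5 (n = 51, median 28.5, from 4.72 to 522). The highest of these values rests on 4 counts in the library with a total of 7673 (1-4 of SAL-LPS). A comparison of Chrm3 with Chrm1 depends on the length used. Per kb of exon, hippocampal Chrm3 stood at 77.9 CPM and Chrm1 at 36.3, but per kb of gene body the order was reversed, with 1.00 for Chrm3, whose body spans 485 kb, and 11.9 for Chrm1.

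Chrm2, the M2 receptor gene, was highest in the striatum (86.4 ± 41.9 CPM, SD, n = 54, median 76.2, from 22.1 to 178) and had the same mean in hippocampus and PFC (56.6 ± 30.3 and 56.6 ± 31.2, n = 55 and 48). Striatum exceeded hippocampus by a log2FC of 0.73 (SE 0.17, edgeR adjusted p = 0.000162) and PFC by 0.67 (SE 0.18, edgeR adjusted p = 0.000956). The second was 0.21 without the libraries that went against their labels (edgeR adjusted p = 0.613) and did not pass there. In SAL-SAL libraries alone neither passed (0.80 and 1.06, edgeR adjusted p = 0.229 and 0.101). The M4 receptor gene Chrm4 had low values throughout, with means of 11.1 ± 8.31 CPM in the PFC, 10.6 ± 8.89 in the striatum, 5.83 ± 18.9 in the hypothalamus and 3.83 ± 3.99 in the hippocampus. PFC and striatum did not differ beyond the threshold (log2FC -0.04, SE 0.32, edgeR adjusted p = 1.00) and both exceeded the hippocampus, by 1.70 (SE 0.32, edgeR adjusted p = 2.96e-06) and 1.66 (SE 0.31, edgeR adjusted p = 3.63e-06). The hypothalamic mean of Chrm4 rested on the same shallow library, where 1 count gave 130 CPM, and its median was 1.62. Hippocampal Chrm4 exceeded hypothalamic by 0.74 (SE 0.33, edgeR adjusted p = 0.0461), which passed in 4 of 9 alternatives, with values from 0.54 to 1.70, and not without the libraries that went against their labels (0.70).

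**Figure D1:**
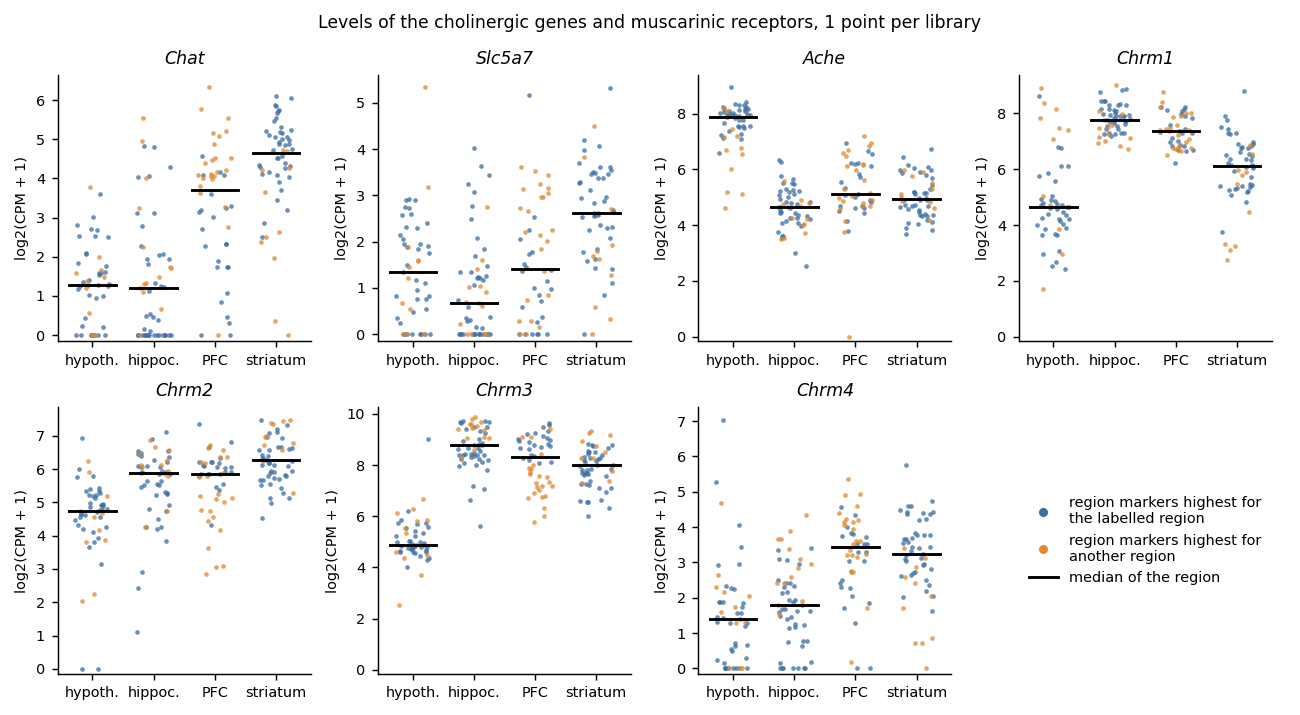
Deposited CPM of the 7 genes in every library of the 4 regions, as log2(CPM + 1), with 1 point per library (blue where the region markers ranked highest for the labelled region, orange where for another) and a bar at the median of each region. Chat and Slc5a7 are highest in the striatum, Ache in the hypothalamus, Chrm1 and Chrm3 in the hippocampus and PFC, and the ranges of the regions overlap for every gene.

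Of the 42 comparisons of a member between 2 regions, 34 passed. Of all 32841 genes tested, many passed as well: 62.1% for hippocampus vs hypothalamus, 63.3% for PFC vs hypothalamus, 63.7% for striatum vs hypothalamus, 27.3% for PFC vs hippocampus, 28.4% for striatum vs hippocampus and 31.2% for striatum vs PFC. Without the hypothalamic table, 15 of 21 passed, and all 7 members did so between striatum and hippocampus. In SAL-SAL libraries alone 21 of 42 passed. The comparisons given above that did not pass there also include Chat and Ache in PFC against hippocampus (edgeR adjusted p = 0.0728 and 0.212), Ache in striatum against hippocampus (0.414) and Chrm4 in PFC and striatum against hippocampus (0.0818 and 0.0558). Over all genes the median log2FC against the hypothalamus was -0.52, -0.55 and -0.47 for hippocampus, PFC and striatum.

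The members also differed strongly between libraries of 1 region, along with the markers of the region (8 striatal projection neuron markers, 8 thalamic and 7 cortical markers among others). The values below are Spearman correlations of normalized log2 CPM after removal of condition and sex means, over libraries that share region, depth differences and dissection, and they are a description without a test. In the striatum (54 libraries) Chrm4 and Chrm1 rose and fell with the mean of the striatal projection neuron markers (rho 0.88 and 0.81), Chat and Slc5a7 less so (0.57 and 0.64), while Chrm2 and Chrm3 ran the other way (-0.76 and -0.74). Chrm2 and Chrm3 went with the thalamic markers there (0.74 and 0.51) and Chrm1 and Chrm4 against them (-0.71 and -0.66). Among the members themselves Chrm1 paired with Chrm4 (0.84) and Chrm2 with Chrm3 (0.73), and each of Chrm1 and Chrm4 opposed Chrm2 (-0.80 and -0.83). In the PFC (48 libraries) Chat went with the striatal markers (0.73) and against the cortical ones (-0.61), and Chrm3 did the reverse (-0.79 and 0.75). Chat and Slc5a7, which a cholinergic neuron makes together, correlated by 0.55 in hippocampus, 0.44 in hypothalamus, 0.35 in PFC and 0.29 in striatum.

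Libraries split by their region markers showed the same pattern in levels. The 43 striatal libraries whose markers matched the label had a Chat mean of 29.7 ± 15.8 CPM and a Chrm4 mean of 12.3 ± 9.04, against 10.5 ± 9.63 and 3.68 ± 3.21 in the other 11 (SD). Chrm2 was lower in the matching libraries, with 77.1 ± 36.1 against 123 ± 44.6, and so was Chrm3, with 243 ± 109 against 387 ± 174. In the PFC, Chrm3 was 481 ± 150 in the 24 matching libraries and 213 ± 161 in the other 24, all of which had striatal markers ranked highest. Samples were not regrouped by this split for any test, and the part of tissue composition in the values was not tested.

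**Figure D2:**
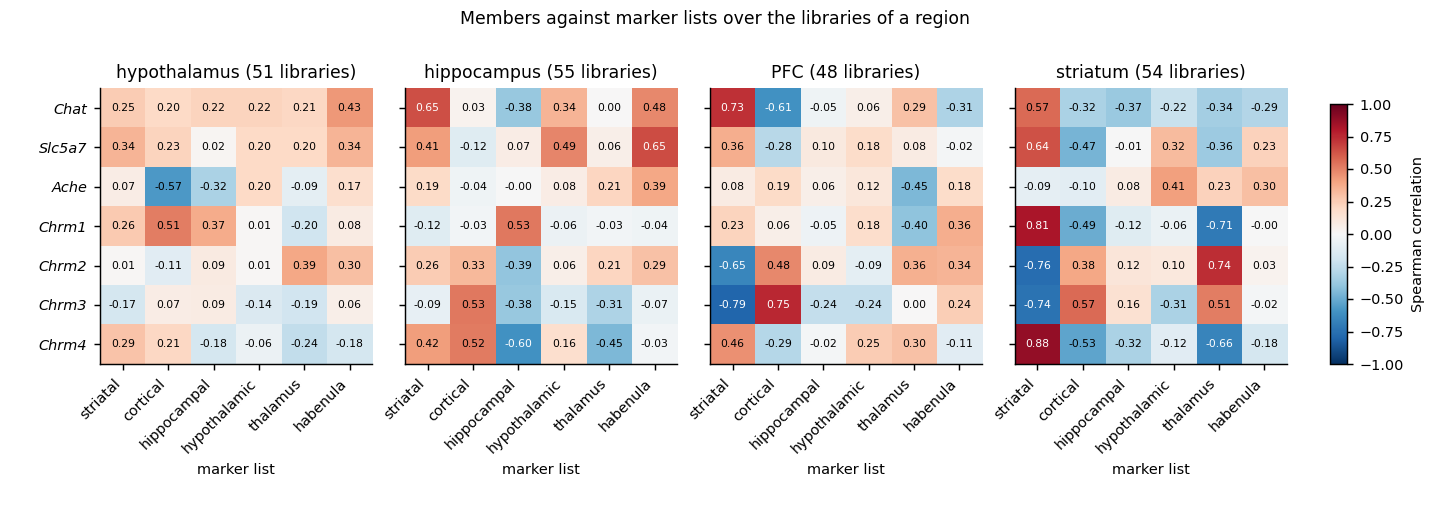
Spearman correlation, within each region, of each of the 7 genes with the mean of 6 lists of region markers over the libraries of the region, after removal of condition and sex means. Striatal Chrm4 and Chrm1 are high with striatal projection neuron markers (0.88 and 0.81) where Chrm2 and Chrm3 are low (-0.76 and -0.74).

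The genes most like a member in the region where that member was highest were named by the same measure, among genes with a mean of at least 5 CPM. Striatal Chat was most like Gm13974 (0.90), Stk32a (0.87), Cd163, Kctd1 and Rgs9 (each 0.86), and only Rgs9, a signalling regulator of striatal neurons, is on one of the marker lists. Striatal Slc5a7 was most like Pdrg1 (0.77), 8430419L09Rik, Sgtb, Itpa and Slc25a5. Hypothalamic Ache was most like Disp2 (0.81), Nacad, Rec8, Klhl1 and Steap2. Hippocampal Chrm1 was most like Scn3b (0.79), a sodium channel subunit, Cnih2, an AMPA receptor partner, Ubtf, Neurod2 and Itpka. Hippocampal Chrm3 was most like Ext1 (0.90), Etl4, Khdrbs3, Dmd and Slc8a1. Striatal Chrm2 was most like Pde4d (0.90), B4galt5, Tshz2, Ncald and A430010J10Rik. For Chrm4 in the PFC the values were lowest, with Tmem158 at 0.61 followed by Kctd17, Isyna1, 3110043O21Rik and Chadl.

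The study's main question was whether perinatal morphine changes neuronal gene expression at rest and after LPS, and the members were compared between the 4 conditions within each region. Values here are normalized CPM (CPM scaled by the TMM factors of that region's fit), and log2FC and SE come from the edgeR fit with condition and sex. The interaction is the LPS response (LPS against saline) of the morphine-exposed mice minus that of the saline-exposed mice. Of the 168 tests (7 members, 6 contrasts and 4 regions, male against female included), 2 passed, both in the hypothalamus. All 7 passed the filter on low counts in every region. In each of the 112 pairs of groups compared (7 members, 4 contrasts of conditions and 4 regions) the ranges overlapped. Fewer cells of a type and less RNA per cell cannot be told apart in such bulk libraries.

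Hypothalamic Chrm1 was higher in MOR-LPS than in MOR-SAL. The lowest, median and highest library stood at 4.78, 18.0 and 65.7 normalized CPM in MOR-SAL (n = 14) and at 7.73, 67.8 and 458 in MOR-LPS (n = 14). In SAL-SAL (n = 11) they were 2.74, 23.9 and 67.7 and in SAL-LPS (n = 12) 8.24, 20.2 and 188. The MOR-LPS libraries spread over a wide range: 7 of the 14 lay above every MOR-SAL library, from 104 to 458, and the other 7 lay between 7.73 and 31.4, inside the MOR-SAL range. The log2FC was 2.50 (SE 0.49, edgeR adjusted p = 0.00148), where 6.27% of the 28859 genes tested passed. MOR-LPS exceeded SAL-LPS by 1.50 (SE 0.51, edgeR adjusted p = 0.116) and the interaction was 1.77 (SE 0.71, edgeR adjusted p = 0.168), neither of which passed. The interaction was 2.60 (edgeR adjusted p = 0.0207) without the libraries whose Y-linked genes went against the labelled sex. MOR-SAL and SAL-SAL differed by -0.26 (SE 0.50, edgeR adjusted p = 0.883).

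Markers of other tissue moved with this result. Of the 7 high MOR-LPS libraries (5 from males, with 5 label numbers), 6 had hippocampal or PFC markers ranked highest, against 1 of the other 7 MOR-LPS libraries and 2 of 14 MOR-SAL libraries. The summed CPM of the cortical neuron markers was 160 to 518 (median 281) in the 7 high libraries, 65.0 to 139 (median 128) in the other 7 and 94.7 to 186 (median 128) in MOR-SAL. Of the 7 cortical markers 5 passed as higher in MOR-LPS than in MOR-SAL (median log2FC over the list 2.99, and 0.0028 over all genes), as did 2 of 7 hippocampal, 5 of 6 oligodendrocyte, 4 of 6 astrocyte and 2 of 6 microglia markers. Within MOR-LPS the glial markers had lower medians in the high libraries than in the other 7. The summed CPM of the oligodendrocyte markers was 233 to 1905 (median 366) in the high libraries and 216 to 6800 (median 1305) in the other 7. In MOR-SAL it was 76.29 to 694.9 (median 349.9). The astrocyte sums had medians of 105 and 286 in these 2 sets. The astrocyte sums of the high libraries (70.91 to 365.5) lay above those of every MOR-SAL library (21.35 to 47.63, median 33.38). The hypothalamic neuron markers had a median sum of 15.1 in the high libraries (0.723 to 384), 76.5 in the other 7 (19.8 to 285) and 120 in MOR-SAL (6.98 to 288). Across all 51 hypothalamic libraries Chrm1 correlated with the cortical markers by 0.51 (Spearman). Without the 15 hypothalamic libraries that went against a region or sex label, the Chrm1 difference was 1.13 (SE 0.38, edgeR adjusted p = 0.163) and did not pass. It was 3.62 in males alone (SE 0.57, edgeR adjusted p = 0.000565) and 1.22 in females alone (SE 0.60, edgeR adjusted p = 0.325), and whether the sexes differ was not tested. By limma on log2(CPM + 1) it was 1.80 (SE 0.55, limma adjusted p = 0.0876) and on log2(CPM + 0.1) 1.84 (SE 0.58, limma adjusted p = 0.131), which did not pass. The cortical, hippocampal and glial markers' part in the Chrm1 difference was not tested.

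**Figure D3:**
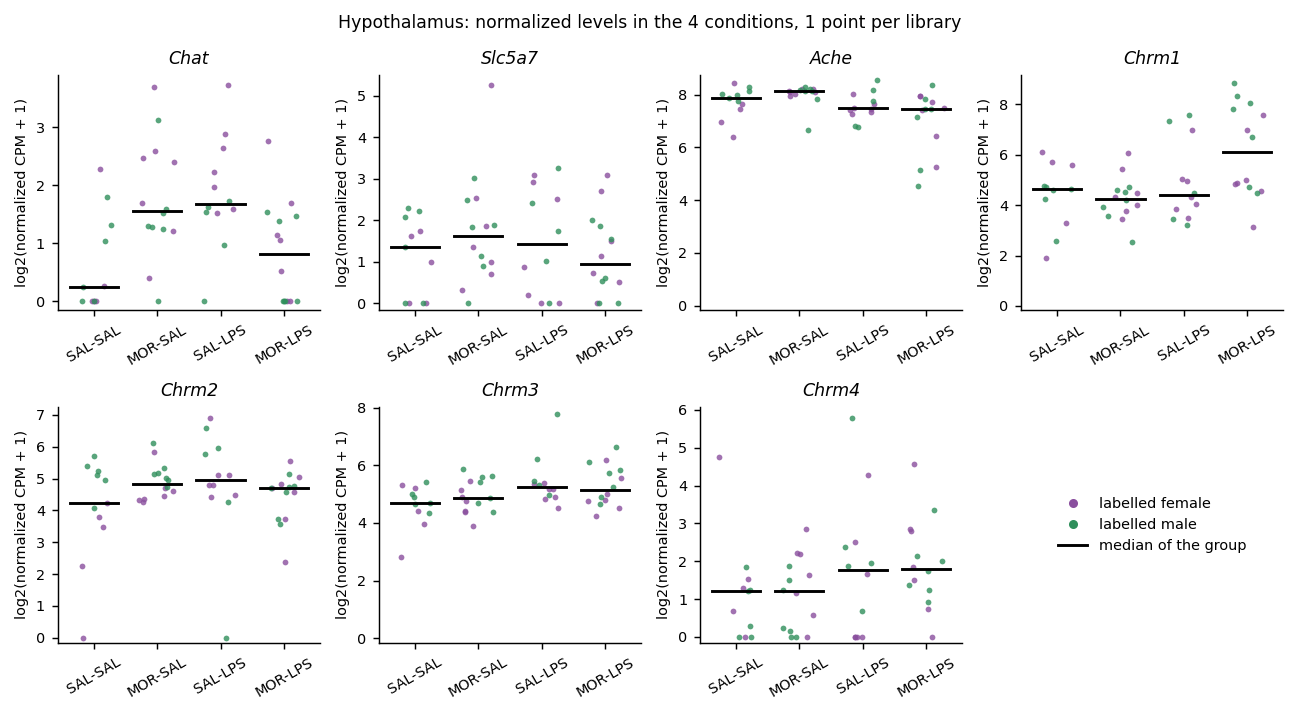
Normalized CPM of the 7 genes in the 51 hypothalamic libraries by condition, as log2(normalized CPM + 1), with 1 point per library coloured by labelled sex and a bar at the group's median. Chrm1 in MOR-LPS reaches from 7.73 to 458 with a median of 67.8, against medians of 18.0 to 23.9 in the other groups.

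**Figure D4:**
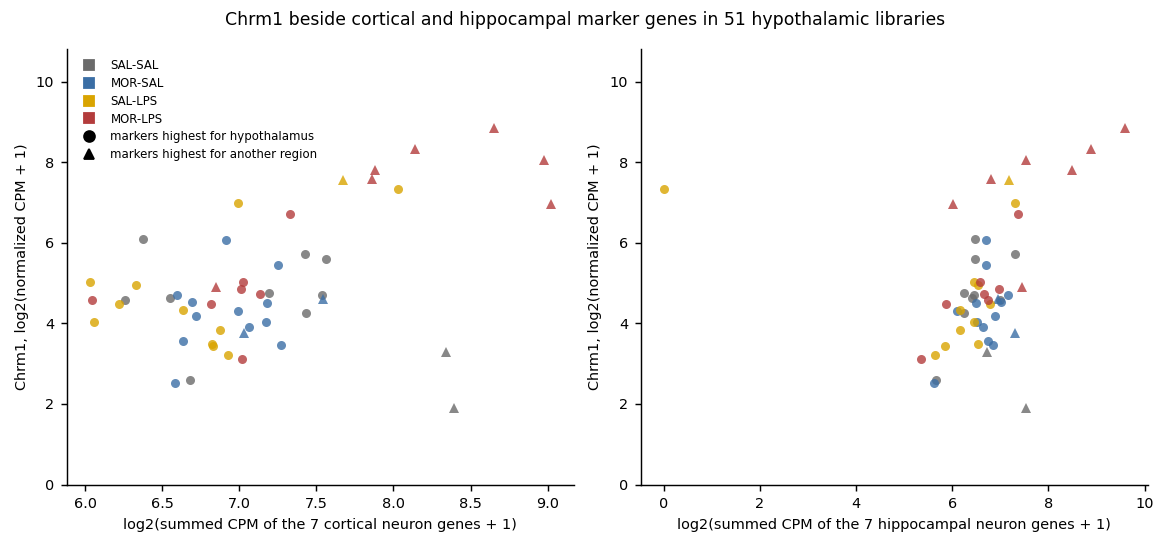
Chrm1 as log2(normalized CPM + 1) against the log2 of the summed CPM + 1 of 7 cortical (left) and 7 hippocampal (right) neuron markers, with 1 point per hypothalamic library, coloured by condition, and triangles where the region markers ranked highest for another region. The 7 MOR-LPS libraries with the highest Chrm1 have cortical sums of 160 to 518.

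Hypothalamic Chrm2 was the second gene that passed, for the interaction. Its lowest, median and highest library stood at 0, 17.6 and 51.6 normalized CPM in SAL-SAL (n = 11), 0, 30.2 and 118 in SAL-LPS (n = 12), 18.2, 27.7 and 69.0 in MOR-SAL (n = 14) and 4.17, 25.0 and 45.9 in MOR-LPS (n = 14). The median was higher after LPS in saline-exposed mice and slightly lower in morphine-exposed mice, with all ranges overlapping. The LPS response was 1.13 in saline-exposed mice (SE 0.34, edgeR adjusted p = 0.0832) and -0.39 in morphine-exposed mice (SE 0.29, edgeR adjusted p = 0.499), and the interaction was -1.51 (SE 0.44, edgeR adjusted p = 0.0329), where 3.8% of all genes passed. MOR-LPS was below SAL-LPS by -0.99 (SE 0.30, edgeR adjusted p = 0.0744). Thalamic and glial markers moved in this contrast too: 4 of 8 thalamic, 5 of 6 oligodendrocyte and 2 of 6 astrocyte markers had a positive interaction that passed, as did the choroid plexus genes Ttr and Enpp2 (7.68 and 2.13) and the microglial Csf1r (2.98). Of 8 striatal projection neuron markers 3 had a negative one that passed (Rgs9 -1.93, Adora2a -5.85 and Penk -1.67), the sign of Chrm2, as had 1 of 10 hypothalamic markers (Pomc -4.19). The part of these markers in the Chrm2 value was not tested. The interaction was negative in all 15 alternatives but passed in 5 of them. It was -1.69 by limma-voom with a correlation within label numbers (limma-voom adjusted p = 0.142), -1.41 by DESeq2 (DESeq2 adjusted p = 0.0547), and -1.14 without the libraries that went against a label (edgeR adjusted p = 0.216), and with 1 label number left out at a time it ran from -1.71 to -1.11 and did not pass without label number 4, 9, 13 or 14. The 2 highest SAL-LPS libraries, 4-4 and 1-0, stood at 118 and 95.2, and the library 1-4 at 0 had a total of 7673.

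The other 5 members were not called by edgeR in any hypothalamic contrast. Ache stood at 82.6, 234 and 343 normalized CPM in SAL-SAL (lowest, median and highest), 99.3, 277 and 309 in MOR-SAL, 108, 177 and 376 in SAL-LPS and 22.4, 175 and 330 in MOR-LPS. The MOR-LPS libraries reached lower than any other group, and the 3 lowest of them (22.4, 34.2 and 37.3) had PFC or hippocampal markers ranked highest. The Ache difference of MOR-LPS and MOR-SAL was -0.70 (SE 0.23, edgeR adjusted p = 0.0537). It passed in 5 of 15 alternatives but was -0.30 without the libraries that went against a label (edgeR adjusted p = 0.454), and across the libraries Ache ran against the cortical markers (rho -0.57).

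Chat was low in this region, with medians of 0.189 normalized CPM in SAL-SAL (5 of 11 libraries at 0), 1.94 in MOR-SAL (1 of 14 at 0), 2.19 in SAL-LPS (1 of 12 at 0) and 0.746 in MOR-LPS (6 of 14 at 0). The groups' highest libraries were 3.83, 12.0, 12.2 and 5.81. The medians after morphine or LPS alone were above those of SAL-SAL or MOR-LPS, with a log2FC against SAL-SAL of 1.66 for MOR-SAL (SE 0.81, edgeR adjusted p = 0.272) and 1.70 for SAL-LPS (SE 0.86, edgeR adjusted p = 0.368), with an interaction of -3.23 (SE 1.12, edgeR adjusted p = 0.0891). Slc5a7 had an interaction of -2.13 (SE 1.11, edgeR adjusted p = 0.350). None of these passed. MOR-LPS against SAL-LPS was -1.56 for Chat (SE 0.76, edgeR adjusted p = 0.332), and it passed only by limma-voom with a correlation within label numbers (-2.80, limma-voom adjusted p = 0.0374). Chrm3 had medians of 25.0 in SAL-SAL, 28.4 in MOR-SAL, 37.01 in SAL-LPS and 34.3 in MOR-LPS, and its largest log2FC, 0.74 for SAL-LPS against SAL-SAL (SE 0.26, edgeR adjusted p = 0.140), did not pass. Chrm4 had medians of 1.33, 1.31, 2.42 and 2.47 in the same order and SEs of 0.60 or more. For scale, 1.44% of all genes passed for MOR-SAL against SAL-SAL, 1.03% for MOR-LPS against SAL-LPS and 0.246% for SAL-LPS against SAL-SAL.

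**Figure D5:**
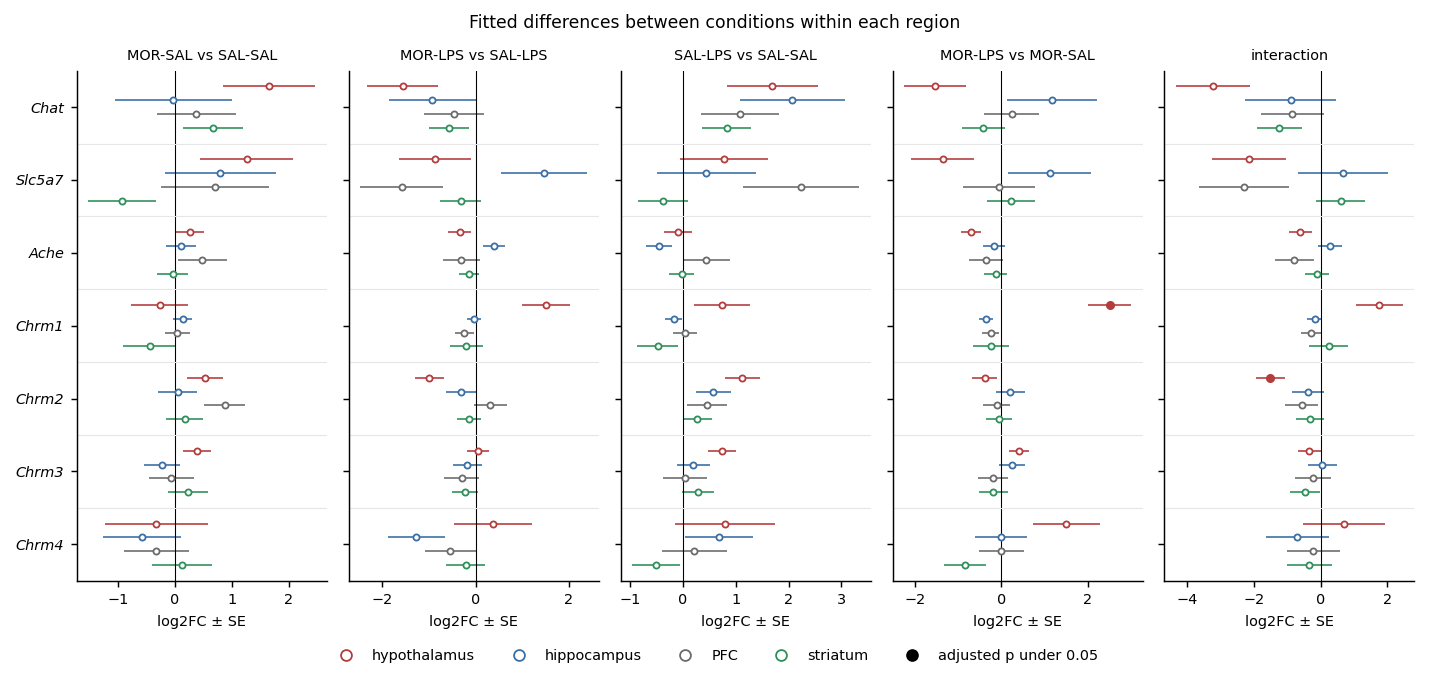
Fitted log2FC of the 7 genes with bars of 1 SE for 5 contrasts, 1 colour per region, filled where the adjusted p was under 0.05. Hypothalamic Chrm1 in MOR-LPS against MOR-SAL (2.50) and the Chrm2 interaction (-1.51) passed the threshold, and Chat and Slc5a7 have the widest bars.

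In the hippocampus 0 of 42 tests passed by edgeR and 0 by DESeq2 (4 had an unadjusted edgeR p under 0.05), where 0% of the 22076 genes passed for MOR-SAL against SAL-SAL (2272 at an unadjusted p under 0.05), 2.73% for MOR-LPS against SAL-LPS, 2.55% for SAL-LPS against SAL-SAL, 0.467% for MOR-LPS against MOR-SAL and 2.35% for the interaction. Of the receptors Chrm1 had the smallest SEs. Its medians were 233 normalized CPM in SAL-SAL, 239 in MOR-SAL, 214 in SAL-LPS and 199.7 in MOR-LPS, with every library between 112 and 410, and the LPS response of morphine-exposed mice was -0.35 (SE 0.16, edgeR adjusted p = 0.270, unadjusted p = 0.0298). Chrm3 medians were 471, 337, 421 and 534 in the same order, and its log2FC stayed within -0.23 to 0.24 with SEs of 0.31 or 0.32 in the exposure and LPS contrasts. Chrm2 had medians of 36.5, 50.1, 70.0 and 59.0 and a log2FC of 0.57 for SAL-LPS against SAL-SAL (SE 0.34, edgeR adjusted p = 0.399). Ache medians were 26.8, 29.8, 19.9 and 21.4, without a difference that passed. Chat was at 0 in 9 of 13 SAL-SAL libraries, 4 of 12 MOR-SAL, 4 of 14 SAL-LPS and 1 of 16 MOR-LPS, with highest values of 17.2, 6.84, 50.7 and 26.9. Its SAL-LPS level exceeded SAL-SAL by 2.07 (SE 1.00, edgeR adjusted p = 0.263). The 2 highest SAL-LPS libraries by deposited CPM (1-2 at 45.3 and 9-3 at 30.1) both had striatal markers ranked highest. Slc5a7 medians were 0.0931, 1.34, 0.346 and 0.753 in the order used for Chrm1. Chrm4 medians were 2.53, 1.31, 5.33 and 2.23, with a log2FC of -1.27 in MOR-LPS against SAL-LPS (SE 0.62, edgeR adjusted p = 0.274).

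In the PFC 0 of 42 tests passed by edgeR and 0 by DESeq2 (2 had an unadjusted edgeR p under 0.05). The share of all 21729 genes that passed was 0% for MOR-SAL against SAL-SAL (2185 at an unadjusted p under 0.05), 0.0046% for MOR-LPS against SAL-LPS, 0% for SAL-LPS against SAL-SAL (2752), 0.0184% for MOR-LPS against MOR-SAL and 1.78% for the interaction. Chrm1 medians lay between 153 and 180 normalized CPM in the 4 groups and Chrm3 medians between 302 and 355, with log2FC of -0.25 to 0.04 (SE 0.19 to 0.23) and of -0.29 to 0.03 (SE 0.35 to 0.41) in the exposure and LPS contrasts. The largest change in size among the receptors was Chrm2 in MOR-SAL, with a lowest, median and highest library of 12.3, 75.6 and 104 against 7.97, 39.0 and 70.3 in SAL-SAL. Its log2FC of 0.88 (SE 0.36) had an unadjusted p of 0.0193 and an edgeR adjusted p of 0.313. Slc5a7 was 2.24 higher in SAL-LPS than in SAL-SAL (SE 1.10, edgeR adjusted p = 0.382), with medians of 4.37 and 0.886. Chat medians were 7.31 in SAL-SAL, 12.5 in MOR-SAL, 15.7 in SAL-LPS and 11.9 in MOR-LPS, and the 3 highest libraries by deposited CPM (79.7, 53.3 and 45.7) all had striatal markers ranked highest. Ache medians were 30.1, 45.8, 28.9 and 34.1 and Chrm4 medians 10.03, 7.73, 12.3 and 9.10 in the same order, with no contrast that passed.

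In the striatum, where Chat was best measured, 0 of 42 tests passed by edgeR and 0 by DESeq2 (0 had an unadjusted edgeR p under 0.05). The share of all 23426 genes that passed was 0% for MOR-SAL against SAL-SAL (2683 at an unadjusted p under 0.05), 0% for MOR-LPS against SAL-LPS (2628), 0.0128% for SAL-LPS against SAL-SAL, 1.39% for MOR-LPS against MOR-SAL and 0.00854% for the interaction. Chat medians were 17.9, 27.8, 32.9 and 21.9 normalized CPM in SAL-SAL (n = 13), MOR-SAL (n = 8), SAL-LPS (n = 15) and MOR-LPS (n = 18), within ranges that reached from 0 to 77.8. As in the hypothalamus both singly exposed groups had the higher medians, but the log2FC of 0.67 for MOR-SAL (SE 0.53, edgeR adjusted p = 0.648) and 0.83 for SAL-LPS (SE 0.46, edgeR adjusted p = 0.486) against SAL-SAL and the interaction of -1.24 (SE 0.68, edgeR adjusted p = 0.384) did not pass. Slc5a7 medians were 9.64, 3.99, 5.67 and 5.19. Ache medians lay between 30.3 and 32.1 and its log2FC between -0.15 and -0.03 in the exposure and LPS contrasts (SE 0.22 to 0.28). Chrm4 had a log2FC of -0.85 in MOR-LPS against MOR-SAL (SE 0.49, edgeR adjusted p = 0.357), with medians of 6.56 and 11.9, and the largest log2FC in size of Chrm1, Chrm2 and Chrm3 between exposures was -0.44 (Chrm1 in MOR-SAL, SE 0.46).

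Between the sexes 0 of 7 members passed in each region by edgeR (3 of 28 tests had an unadjusted p under 0.05), where 3.45% of all hypothalamic genes, 2.51% of hippocampal, 0.709% of PFC and 0.841% of striatal genes passed. The nearest was hypothalamic Chrm3, at 19.1, 38.6 and 216 normalized CPM (lowest, median and highest) in 25 libraries of males and 6.12, 28.1 and 70.9 in 26 of females. The highest of the males is the library with a total of 7673. The ranges overlapped and the log2FC was 0.55 (SE 0.17, edgeR adjusted p = 0.0536). With 1 label number left out at a time it passed in 6 of 17 fits (0.43 to 0.63). With the label number as replicate block it was -0.34 (SE 0.72) and did not pass. Hypothalamic Chrm2 was 0.57 higher in males (SE 0.22, edgeR adjusted p = 0.146). Hippocampal Chat had a log2FC of -0.41 (SE 0.75, edgeR adjusted p = 0.872), which was -4.08 (SE 1.05, edgeR adjusted p = 0.0426) without the libraries that went against a label. All but 1 of the label numbers held libraries of 1 sex, so sex and label number cannot be told apart.

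Other genes of ACh transmission were counted from 4 lists. Of 10 genes for choline supply, vesicle packing, breakdown and the M5 receptor, 9 or 10 were tested in each region and 0 passed in any of the 24 contrasts by edgeR (22 of 222 tests had an unadjusted p under 0.05). The highest of them by CPM were Chka, a choline kinase (319 ± 95.6 in hypothalamus, 169 ± 35.5 in hippocampus, 229.7 ± 86.9 in PFC and 175 ± 42.6 in striatum, SD), and Slc44a1, a choline transporter (51.2 ± 30.3, 225 ± 41.5, 127 ± 37.6 and 188 ± 54.5). The top 3 also held Slc44a2 in hypothalamus and hippocampus (58.4 ± 20.7 and 28.1 ± 11.9) and Prima1, which anchors the Ache product in membranes, in PFC and striatum (37.5 ± 24.4 and 53.0 ± 31.2). Chrm5, the M5 receptor gene, averaged 12.6 ± 9.85 CPM in the hypothalamus and 1.58 to 1.87 in the other regions.

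Of 16 nicotinic receptor subunits, Chrna7 was highest in hippocampus, PFC and striatum (103 ± 31.1, 54.7 ± 17.8 and 77.9 ± 33.9 CPM) and Chrnb2 in hypothalamus (109 ± 49.7), followed there by Chrna4 (80.7 ± 48.1) and Chrna6 (11.6 ± 15.0). Chrnb2 and Chrna4 were also among the top 3 elsewhere, at 41.3 ± 21.1 and 32.5 ± 16.5 in hippocampus, 39.6 ± 22.1 and 35.5 ± 24.0 in PFC and 36.2 ± 22.3 and 42.2 ± 28.1 in striatum. In the hypothalamus 1 of 14 tested subunits passed in MOR-LPS against MOR-SAL: Chrna2 rose by a log2FC of 3.57 (SE 1.10, edgeR adjusted p = 0.0378) with a mean level of 1.83 CPM, where 6.27% of all genes passed. In the hippocampus Chrnb4 (mean 2.81 CPM) was higher in MOR-LPS than in SAL-LPS by 3.72 (SE 1.02, edgeR adjusted p = 0.0347) and lower in males by -3.59 (SE 0.79, edgeR adjusted p = 0.0127), where 2.73% and 2.51% of all genes passed. Chrnb4 is also 1 of 6 habenula markers, whose summed CPM had a median of 131 in MOR-LPS (highest 573) and 75.6 in SAL-LPS (highest 172), and another of them, Pou4f1, was lower in males too (-3.21, SE 0.81, edgeR adjusted p = 0.0211). The part of habenular tissue in the Chrnb4 values was not tested. The other nicotinic calls were of genes under 1 CPM on average: Chrng and Chrna9 after LPS and Chrne and Chrna10 by sex in hippocampus, and Chrna6 and Chrna9 in the PFC interaction.

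Of 20 partners of muscarinic signalling, 3 tests passed, all in the hypothalamus and each for 1 gene of 20, beside 1.44%, 6.27% and 3.8% of all genes in the 3 contrasts. Kcnq3, a potassium channel of the M current that muscarinic receptors close, had a log2FC of -0.93 in MOR-SAL against SAL-SAL (SE 0.22, edgeR adjusted p = 0.0176, mean 201 CPM). In the same contrast 5 of 8 thalamic markers (Prkcd -4.17 and Plekhg1 -3.25 among them), 3 of 6 choroid plexus markers (Ttr -6.02) and 1 of 6 oligodendrocyte markers were lower, and their part in the Kcnq3 value was not tested. Prkca, a protein kinase C, rose by 1.00 in MOR-LPS against MOR-SAL (SE 0.25, edgeR adjusted p = 0.0110, mean 35.7 CPM). Kcnj3, a channel that Gi/o proteins open, had an interaction of 1.12 (SE 0.29, edgeR adjusted p = 0.0166, mean 46.6 CPM). The cortical, thalamic and glial markers given with Chrm1 and Chrm2 moved in the contrasts of Prkca, Kcnj3 and Chrna2, and their part in these values was not tested. Among the highest of the list were Gnao1 and Kcnq3 in hypothalamus (323 ± 137 and 201 ± 115 CPM), Kcnq3, Plcb1 and Prkcb in hippocampus (1116 ± 300.0, 868 ± 302 and 825 ± 298) and striatum (1485 ± 494, 1473 ± 726 and 1315 ± 519), and Kcnq5, Prkcb and Plcb1 in PFC (1346 ± 549, 1315 ± 377 and 1085 ± 369).

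Of 10 markers of cholinergic neuron identity, Ecel1 was highest in every region (114 ± 108 CPM in hypothalamus, 3.99 ± 7.22 in hippocampus, 21.8 ± 24.4 in PFC and 23.4 ± 18.5 in striatum). Isl1, a transcription factor of striatal cholinergic and other neurons, stood at 13.0 ± 13.8, 2.51 ± 5.34, 6.27 ± 6.80 and 14.1 ± 7.88. Slc10a4 was among the top 3 in hypothalamus and PFC (18.1 ± 26.8 and 5.37 ± 7.87), Zic4 in hippocampus (2.46 ± 4.57) and Lhx8, a factor that specifies forebrain cholinergic neurons, in striatum (7.40 ± 5.48). In MOR-LPS against SAL-LPS, Lhx8 was lower in hypothalamus (log2FC -4.66, SE 1.25, edgeR adjusted p = 0.0475) and in hippocampus (-6.21, SE 1.28, edgeR adjusted p = 0.0145). Slc10a4 (-3.96, SE 0.99, edgeR adjusted p = 0.0263) and Nkx2-1 (-3.81, SE 1.03, edgeR adjusted p = 0.0334) were lower there too. Slc10a4 was also lower in MOR-LPS than MOR-SAL in hippocampus (-4.38, SE 1.04, edgeR adjusted p = 0.0459) and had an interaction of -6.20 (SE 1.43, edgeR adjusted p = 0.0124). All 3 averaged under 1 CPM in the region concerned (0.763 and 0.304 for Lhx8, 0.732 for Slc10a4 and 0.148 for Nkx2-1). In MOR-LPS against SAL-LPS these were 3 of 9 tested genes of the list in hippocampus, beside 2.73% of all genes, and 1 of 10 in hypothalamus, beside 1.03%. In the same contrast the summed CPM of the striatal projection neuron markers was 332 ± 351 (highest 1347) in SAL-LPS and 197 ± 79.9 (highest 363) in MOR-LPS in hypothalamus, where the hippocampal marker Dsp also passed (7.06), and 606 ± 839 (highest 2305) and 203 ± 206 (highest 773) in hippocampus (SD). Their part in the Lhx8, Slc10a4 and Nkx2-1 values was not tested. Chat itself differed in the same hippocampal comparison by -0.92 (SE 0.94, edgeR adjusted p = 0.698).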

How the data were processed

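RNA of sorted NeuN+ nuclei was sequenced by a modified Smart-seq3 protocol. Per the labels and the study's methods, the authors used Trim Galore 0.6.7, STAR 2.7.10a, HTSeq 0.12.4 and DESeq2 1.40.2 on mm10. The deposited values are raw counts per gene, 1 table per region, and CPM, which the authors made from those counts after dropping 37 mitochondrial genes. The strand setting of counting is not given in the sources used here.

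Here, each region's counts were fitted with edgeR 4.0.16 (R 4.3.3, TMM, genes with a total count over 10, quasi-likelihood test) on condition and sex, and all libraries together on region by condition and sex, with the tables joined by gene name. P-values were adjusted by Benjamini-Hochberg over all genes tested, and a gene passed at an adjusted p under 0.05. Alternatives used DESeq2 1.42.0 and limma 3.58.1. The fits were tested on simulated data of hypothalamic MOR-LPS vs MOR-SAL and of striatum vs hippocampus, where most of the unchanged genes that edgeR called had a mean under 1 CPM. Libraries of 1 animal or label number were treated as separate samples, so p-values may be too small. The members, marker lists and tests were chosen with earlier results of these data known. The genes named are the 7 members, every called gene of the 4 ACh lists, the 3 highest genes of each list and region, and the 5 genes most like each member, except 1 gene that is not reported here. No labelled library was left out of the main fits.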

Additional observations from a re-analysis of the deposited data

Results flagged for a closer look

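Only groups of 4 to 10 libraries were examined, which are SAL-SAL and SAL-LPS in the PFC and MOR-SAL in the striatum. Of these 21 sets (a group and a gene), 5 had a library far from the others, all in the PFC. About 1 in 20 sets is marked by chance alone if values are normally distributed. That was not tested for these values, so the 5 are not read as an excess. In SAL-LPS, Chat stood at 95.54 normalized CPM in library 3-3 against 33.78 in the next, Slc5a7 at 34.63 in library 1-4 against 8.476, and Chrm1 at 376.2 in library 11-0 against 234.4. In SAL-SAL, Slc5a7 stood at 7.236 in library 10-3 against 3.753 and Chrm4 at 30.78 in library 9-0 against 14.63. Libraries 3-3, 11-0 and 9-0 had striatal markers ranked highest, and 1-4 did not.

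The LPS response of hypothalamic Chrm2 differed between morphine-exposed and saline-exposed mice by a log2FC of -1.514 (edgeR adjusted p = 0.03286), with overlapping ranges. It passed in 5 of 15 alternatives, and not with DESeq2 (DESeq2 adjusted p = 0.0547) or without the libraries that went against their labels (-1.14, edgeR adjusted p = 0.216), and striatal, thalamic and glial markers moved in the same contrast.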

How the results depend on the processing

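Of the 42 hypothalamic tests, 2 passed in the main fit, 1 with DESeq2, filterByExpr, without low-depth libraries, in males alone (each Chrm1) or with limma on log2(CPM + 1) (Ache, and not Chrm1), 4 with limma-voom and a correlation within label numbers (Chat and Chrm2 in MOR-LPS against SAL-LPS, Ache and Chrm1 in MOR-LPS against MOR-SAL, and not the Chrm2 interaction), 3 without libraries against their sex label (the Chrm1 interaction is the third), with library size only or with no count filter (Ache in MOR-LPS against MOR-SAL is the third), 2 with no sex term (Ache in place of the Chrm2 interaction), and 0 without libraries against their labels, in females alone or with limma on log2(CPM + 0.1). Leaving out 1 label number at a time gave 1 to 3, and Chrm1 in MOR-LPS against MOR-SAL passed in all 17 (2.16 to 2.93). In the hippocampus the count was 0 except for 1 without libraries against their labels, and in PFC and striatum it was 0 in all 15 and 13 alternatives. Between regions, 34 of 42 passed in the main fit, 21 in SAL-SAL libraries alone and 32 to 35 in the others that kept all tables. Hippocampal against hypothalamic Chat turned from 1.29 to -0.4619 with limma-voom and to -0.07641 with limma-voom and the animal as replicate block; the cause was not tested.

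With the label number as replicate block 2 hypothalamic tests passed (Chrm1 2.08, Chrm2 -1.81) and 0 in each other region. That fit held the LPS contrasts, the interaction and, where it could be told apart from the label number, sex. It could not hold the comparisons of morphine-exposed with saline-exposed mice, since each label number held 1 exposure. With the animal as replicate block, by limma-voom, 32 of 42 passed between regions; the edgeR fit with that block was not run. Libraries of the same animal label correlated across regions by 0.0024 to 0.084 on average, and those of different labels by -0.0048 to 0.0048. Of 71 animal labels 0 held more than 1 condition or sex. Correlations this weak cannot show whether the labels pair libraries of 1 animal, and the main fits did not pair them.

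Chat, Slc5a7 and Chrm4 were at 0 in 13, 11 and 11 of 51 hypothalamic libraries and in 18, 18 and 7 of 55 hippocampal ones. Only large differences are detectable at such levels, and the part of depth in these values was not tested.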
